A study of Mus musculus with 101 samples.

Results

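The comparison asked whether lipopolysaccharide (LPS) changed cortical gene expression by different amounts in 2 areas of the mouse cortex, labelled PFC and VCX. It used every input library of day 1 or day 2, 31 of the 101 libraries in the set. For each gene the LPS minus PBS change in VCX was subtracted from the LPS minus PBS change in PFC, on each day and as the mean of both days. A positive difference therefore means a higher LPS effect in PFC.

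Mice labelled C57 were given LPS intraperitoneally at 5 mg per kg, or phosphate-buffered saline (PBS), and both areas were taken 1 or 2 days later. Input is polyA RNA of the cleared lysate, so it mixes all cell types of the area. The lysate was also the source of astrocyte ribosomes, which carry a hemagglutinin tag and give the precipitated (IP) libraries. How the tag was put into astrocytes is not given in the sources used here. The 8 input groups are PFC PBS, PFC LPS, VCX PBS and VCX LPS on each day, with 4 libraries each except day 2 VCX LPS with 3. Of the 31 libraries 16 were from females and 15 from males, and both sexes are in every group, with 1 male in day 2 VCX LPS. The labels do not say whether libraries came from separate animals or whether the areas share animals, so p-values measure the spread between libraries, which may in part be technical.

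LPS is a component of the bacterial outer membrane that is sensed by Toll-like receptor 4. After a systemic injection, endothelial cells, microglia and astrocytes respond with NF-kB target genes such as cytokines and acute phase genes, with interferon-stimulated genes, and with stress hormone targets. In bulk RNA fewer cells of a type and less RNA per cell cannot be told apart.

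Day 1 libraries held 35.02 to 50.88 M recovered reads and day 2 libraries 13.2 to 39.64 M, the lowest being day 2 VCX PBS replicate 2. The days came from separate sequencing projects, and Gapdh was at 3.64 to 5.42 FPKM (fragments scaled to gene length and library depth) in all day 1 input libraries against 427.61 to 538.3 FPKM on day 2. Day and project cannot be told apart, and the cause of that gap was not tested. The area labels were set against genes of known cortical pattern, chosen after results of these data were known. Scnn1a, a gene of layer 4 in sensory cortex, was at 0.527 to 1.54 scaled FPKM in the VCX libraries and at 0.0870 to 0.308 in the PFC libraries. Rorb, another layer 4 gene, ran from 12.2 to 24.03 in VCX and from 4.35 to 7.48 in PFC, so on both genes the areas did not overlap. Neuron markers summed to 2852 to 3635 FPKM and astrocyte markers to 999.8 to 1395 FPKM per library. Among markers of other cells, lymphocyte markers summed to at most 1.01 FPKM, and up to 5 of the 10 were at 0 in every library of a group.

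The promoters of 3 genes named below are shown first, from RefSeq on GRCm38.p6, 300 bases each around the transcription start. They are Il1b, a proinflammatory cytokine that led the comparison, Ifit1, an interferon-induced antiviral gene, and Cxcl10, a chemokine induced by interferon and NF-kB. Capitals mark matches on either strand to the core of the interferon-stimulated response element, spelled GAAA, any 2 bases and GAAA, or to the kappa B consensus of NF-kB, spelled GGG, a purine, any 2 bases, 2 pyrimidines and CC.
Il1b: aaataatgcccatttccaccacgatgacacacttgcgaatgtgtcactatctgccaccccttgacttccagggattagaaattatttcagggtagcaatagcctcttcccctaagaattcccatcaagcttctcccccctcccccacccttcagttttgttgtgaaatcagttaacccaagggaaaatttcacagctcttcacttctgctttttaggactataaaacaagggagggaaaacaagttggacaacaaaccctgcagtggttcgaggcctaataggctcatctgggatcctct
Ifit1: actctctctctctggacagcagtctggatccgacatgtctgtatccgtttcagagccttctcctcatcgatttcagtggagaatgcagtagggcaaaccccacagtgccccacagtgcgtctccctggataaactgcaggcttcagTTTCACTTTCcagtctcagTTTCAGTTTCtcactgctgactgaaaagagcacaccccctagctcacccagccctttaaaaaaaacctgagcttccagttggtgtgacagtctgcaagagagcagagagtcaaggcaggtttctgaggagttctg
Cxcl10: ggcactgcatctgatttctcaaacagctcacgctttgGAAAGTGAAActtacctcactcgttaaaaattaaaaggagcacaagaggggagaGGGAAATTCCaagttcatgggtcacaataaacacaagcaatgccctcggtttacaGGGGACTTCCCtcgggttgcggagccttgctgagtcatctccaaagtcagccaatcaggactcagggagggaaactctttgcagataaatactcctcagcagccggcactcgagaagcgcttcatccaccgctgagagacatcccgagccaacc
These lie at chr2:129371090-129371389 on the minus strand, chr19:34640639-34640938 on the plus strand and chr5:92348840-92349139 on the minus strand. The response element core occurred 2 times in the Ifit1 window and 1 time in the Cxcl10 window, and the kappa B consensus gave 3 matches in Cxcl10, of which 2 overlap each other. The core was in 3.44% of all 32851 RefSeq promoters of that length and the kappa B consensus in 8.46%. Of the 30 interferon-stimulated genes listed for this work 21 had such a promoter, and 13 of those held the core, against 3.99% of all 27025 genes. The kappa B consensus was in 5 of the 21, against 9.55% of all genes. The Il1b window held neither string of letters.

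No gene passed the test of the area difference on either day or as the mean. On day 1, 0 of 14676 genes tested (0%) had an adjusted p under 0.05 in limma, and the lowest adjusted p was 0.142. On day 2 it was 0 of 14661 (0%) with a lowest adjusted p of 0.0618 (Mir7015, which stayed below a mean of 1 FPKM in every group of that day), and for the mean of the days 0 of 15086 (0%) with a lowest of 0.117. The change of the area difference between days also gave 0 of 15086 (0%), with a lowest adjusted p of 0.507. At an unadjusted p under 0.05 there were 1743 genes (11.9%) on day 1, 883 higher in PFC and 860 lower. There were 304 (2.07%) on day 2, 977 (6.48%) for the mean and 920 (6.1%) for the change. When the day 1 difference was fitted with all 31 libraries, the 15 of day 2 included, 9 genes passed, and the day 2 difference fitted this way gave 1.

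The interval of each difference says how large an area difference these libraries leave possible. The median 95% half-width was 0.28 log2 units on day 1, 0.294 on day 2 and 0.206 for the mean. The interval lay wholly within a 2-fold difference for 88.7% of genes tested on day 1, for 91.6% on day 2 and for 93.7% as the mean. For the remaining genes a 2-fold area difference in the LPS effect was not excluded by the interval.

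The LPS effect itself passed the test for many genes in both areas. On day 1 in PFC 1247 genes rose (8.5% of those tested) and 1176 fell (8.01%), and in VCX 1282 rose (8.74%) and 1192 fell (8.12%). On day 2 in PFC 503 rose (3.43%) and 46 fell (0.314%), and in VCX 271 rose (1.85%) and 29 fell (0.198%). The day 1 PFC count was 2423 in all, 1681 without PFC LPS replicate 2 and 1054 without PFC LPS replicates 1 and 2. Those 2 libraries stand apart in meningeal markers as given further on. They are also the males of that group, so leaving them out leaves 2 libraries, both from females. The day 2 VCX count was 300 in all and 142 without VCX LPS replicate 2, which leaves 2 libraries in that group.

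Genes that rose in both areas numbered 778 on day 1, which is 62.4% of the PFC list and 60.7% of the VCX list. On day 2 they numbered 252, or 50.1% of the PFC list and 93.0% of the VCX list. Of genes that fell, 540 were shared on day 1 (45.9% of the PFC and 45.3% of the VCX list) and 15 on day 2 (32.6% and 51.7%). Of 1104 genes called in PFC alone on day 1, 928 had the same sign in VCX, and of 1155 called in VCX alone 979 had the same sign in PFC. On day 2 these were 275 of 282 and 32 of 33. The same-sign share over all genes was not counted, so these counts have no background beside them. Over all genes tested the Pearson correlation of the LPS effects in the areas was 0.655 on day 1 and 0.586 on day 2. A call in 1 area alone is not a difference between areas. Among the 3578 genes called in either area on day 1, the interval of the area difference lay within 2-fold for 3242 (90.6%). On day 2 it did so for 451 of 582 (77.5%). Over all genes tested these shares were 88.7% and 91.6%. On day 1 the area difference had an unadjusted limma p under 0.05 for 895 of the 3578, against 1743 of all 14676 genes tested. On day 2 this held for 67 of the 582, against 304 of all 14661. The same libraries gave the calls and the differences, so these counts are not independent of the calls.

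**Figure D1:**
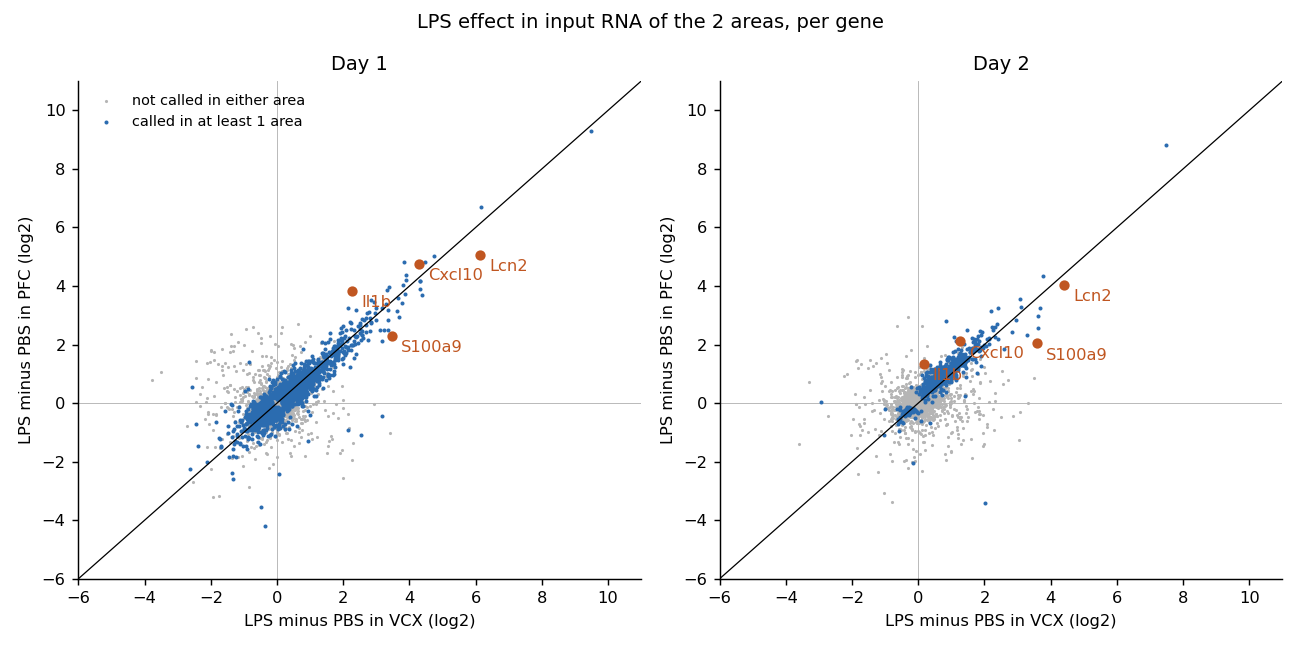
Each point is a gene, with the LPS minus PBS log2 change in VCX on the horizontal axis and in PFC on the vertical axis, for day 1 (14676 genes) and day 2 (14661 genes). Blue points were called in at least 1 area, the black line marks equal change, and Il1b, Lcn2, Cxcl10 and S100a9 are labelled.

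One gene, Ndnl2, was called in opposite directions on day 1, and it was chosen here after its values were seen. Its level was 17.5 ± 0.597 FPKM in PFC PBS and 20.7 ± 1.55 in PFC LPS (SD, n = 4 libraries), and it was 21.2 ± 0.543 in VCX PBS and 18.5 ± 1.60 in VCX LPS. The LPS effect was 0.24 in PFC (limma adjusted p = 0.0239) and -0.20 in VCX (adjusted p = 0.0484) on the log2 scale. The difference of 0.44 ± 0.0947 (SE) did not pass, with an adjusted p of 0.237. On day 2 its difference was -0.12.

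Il1b had the largest difference among the day 1 genes named. The gene lies at chr2:129364570-129371139 on the minus strand (mm10). On day 1 the 4 PFC PBS libraries were at 0.200, 0.287, 0.195 and 0.224 scaled FPKM and the PFC LPS libraries at 3.07, 5.15, 4.98 and 5.36. The VCX PBS libraries were at 1.002, 1.201, 0.739 and 1.05, and the VCX LPS libraries at 5.56, 3.86, 5.67 and 5.52. Under LPS the areas overlapped, whereas under PBS every VCX library lay above every PFC library. LPS raised Il1b 14.3-fold in PFC (adjusted p = 4.71e-09) and 4.79-fold in VCX (adjusted p = 5.92e-07), on the log2(FPKM + 0.1) scale. The difference was 1.58 ± 0.265 (SE, 95% interval 1.01 to 2.14, unadjusted p = 2.04e-05, adjusted p = 0.142). With a pseudocount of 1 in place of 0.1 it was 0.56.

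On day 2 the Il1b level under PBS was 0.246 ± 0.0598 FPKM in PFC (SD, n = 4) and 0.874 ± 0.227 in VCX (n = 4). Under LPS it was 0.822 ± 0.392 in PFC (n = 4) and 1.01 ± 0.448 in VCX (n = 3). The log2 ratio of PFC to VCX was -1.49 under PBS and -0.27 under LPS, against -1.75 and -0.15 on day 1. The day 2 difference in LPS effect was 1.17 ± 0.453 (unadjusted p = 0.0221, adjusted p = 1) and the mean over days 1.39 (95% interval 0.84 to 1.94, adjusted p = 0.117). In the IP libraries the same difference was 0.47 on day 1 and -0.56 on day 2, with unadjusted p of 0.387 and 0.315.

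**Figure D2:**
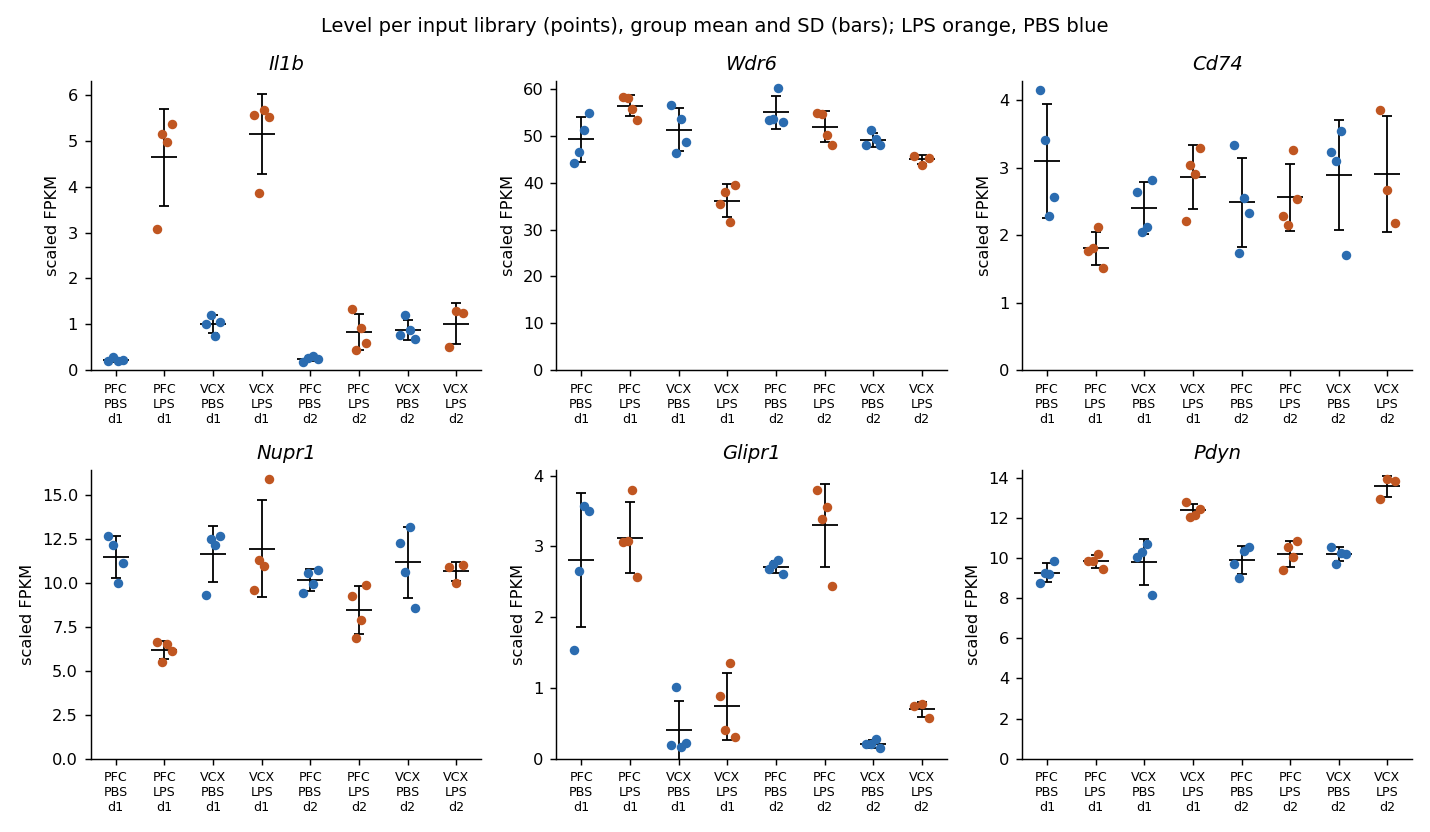
Level of 6 genes in each input library (points, scaled FPKM), with group means and SD (bars), for PBS in blue and LPS in orange. Il1b under LPS reached like levels in both areas on day 1, while PBS levels were higher in VCX.

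Wdr6, a WD repeat protein gene at chr9:108572311-108578739, had the lowest unadjusted p on day 1. It was at 44.2, 46.6, 51.3 and 54.9 FPKM in PFC PBS and at 58.3, 58.0, 55.8 and 53.5 in PFC LPS. It was at 56.7, 46.4, 53.5 and 48.8 in VCX PBS and at 35.4, 38.1, 31.6 and 39.5 in VCX LPS, so in VCX the LPS libraries lay below all PBS libraries. The LPS effect was 0.20 in PFC and -0.51 in VCX (adjusted p = 4.68e-04), a difference of 0.71 ± 0.118 (SE, adjusted p = 0.142). On day 2 the difference was 0.05 ± 0.0836. In the IP it was -0.01 on day 1 and 0.23 on day 2.

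The other genes named on the higher side of day 1 were Ccdc74a, Amn, which is known as a partner of cubilin in vitamin B12 uptake, and Wscd1. Ccdc74a differed by 0.60, from an effect of 0.16 in PFC and -0.44 in VCX. Amn differed by 1.36, with 2.13 ± 0.675 FPKM in PFC PBS, 2.90 ± 0.455 in PFC LPS, 4.91 ± 0.592 in VCX PBS and 2.60 ± 0.231 in VCX LPS (SD, n = 4). Amn thus fell in VCX (-0.89, adjusted p = 0.00176), where no LPS library overlapped a PBS library. In PFC PBS replicate 1 was at 1.17 FPKM against 2.15 to 2.70 in the rest of the group, and without it the Amn difference was 1.15. Wscd1 differed by 0.37. None of these passed the test of the difference, and the adjusted p was 0.142 to 0.201. With all 31 libraries in the fit the adjusted p was 0.022 for Amn, 0.022 for Wscd1 and 0.00297 for Wdr6, so these calls turn with the libraries in the fit.

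On the lower side of day 1 stood Gabrg3, Cd74, Nupr1, Elmod1 and Atf6. Cd74, whose protein is the chaperone that escorts class II molecules, was at 4.15, 3.41, 2.28 and 2.57 FPKM in PFC PBS and at 1.76, 1.81, 2.12 and 1.51 in PFC LPS. It was at 2.64, 2.04, 2.12 and 2.81 in VCX PBS and at 2.20, 3.05, 2.90 and 3.30 in VCX LPS. In PFC all LPS libraries lay below the PBS libraries, and in VCX the groups overlapped. Cd74 fell in PFC (-0.72, adjusted p = 0.00171), its effect in VCX was 0.24, and the difference was -0.96 ± 0.194 (SE, adjusted p = 0.201). In the IP the difference was -0.996 on day 1 (unadjusted p = 0.00109) and -0.57 on day 2 (unadjusted p = 0.205). In input on day 2 it was 0.01 ± 0.355.

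Nupr1, a stress-induced chromatin protein gene, was at 11.5 ± 1.18 FPKM in PFC PBS and 6.18 ± 0.494 in PFC LPS, and at 11.7 ± 1.60 and 11.9 ± 2.75 in VCX (SD, n = 4). It fell in PFC (-0.88, adjusted p = 2.43e-04), its effect in VCX was 0.02, and the difference was -0.90 ± 0.184 (adjusted p = 0.236). In males alone the Nupr1 difference was -0.52. Gabrg3, a GABA-A receptor subunit, differed by -0.67, from -0.54 in PFC (adjusted p = 7.60e-04) and 0.13 in VCX. Its PFC PBS libraries ran from 11.02 to 16.7 FPKM, the highest being replicate 1, and without that library its difference was -0.55. Elmod1 and Atf6, the latter a sensor of the unfolded protein response, differed by -0.36 and -0.37. Elmod1 was highest in the same PFC PBS replicate 1, at 101.7 against 84.5 to 92.7 in the others, and differed by -0.29 without it. With all 31 libraries in the fit the adjusted p was 0.0199 for Gabrg3 and 0.0306 for Elmod1.

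On day 2, among genes with a mean of at least 1 FPKM in a group, Glipr1 had the lowest p on the lower side, with 2.69, 2.75, 2.81 and 2.61 FPKM in PFC PBS and 3.80, 3.39, 3.56 and 2.44 in PFC LPS. In VCX it was at 0.200, 0.210, 0.280 and 0.146 under PBS and at 0.7501, 0.768 and 0.571 under LPS. It rose in VCX (1.41, adjusted p = 1.04e-04), its effect in PFC was 0.25, and the difference was -1.16 ± 0.205 (unadjusted p = 6.22e-05). With a pseudocount of 1 in place of 0.1 it was -0.31. The level was higher in every PFC library than in any VCX library of that day, whatever the treatment. On day 1 the Glipr1 difference was -0.65 ± 0.537.

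Pdyn, the precursor of the dynorphin opioid peptides, was at 10.6, 9.73, 10.3 and 10.2 FPKM in VCX PBS and at 12.98, 13.9 and 13.9 in VCX LPS on day 2. In PFC it was at 9.72, 8.998, 10.4 and 10.6 under PBS and at 9.39, 10.6, 10.1 and 10.8 under LPS. In VCX the LPS libraries lay above all PBS libraries, and in PFC the groups overlapped. Pdyn rose in VCX on day 2 (0.40, adjusted p = 0.00348) and on day 1 (0.34, adjusted p = 0.00272), and its PFC effects were 0.04 and 0.09. The difference was -0.36 ± 0.0892 on day 2, -0.25 ± 0.0981 on day 1 and -0.31 as the mean (95% interval -0.45 to -0.16, unadjusted p = 1.81e-04). In the IP Pdyn was not tested.

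Rbks, Ubald2 and Cisd3 completed the lower side of day 2, with differences of -0.73, -0.68 and -0.24. With a pseudocount of 1 Rbks differed by -0.47 and Ubald2 by -0.41. In males alone, with 1 library in VCX LPS, Ubald2 differed by -0.37. On the higher side were Col23a1, Tmem28, Scarf2, Mir339 and Cebpb. Col23a1, a transmembrane collagen, was at 1.61 ± 0.0238 FPKM in PFC PBS and 2.01 ± 0.126 in PFC LPS (SD, n = 4), and at 3.71 ± 0.186 in VCX PBS (n = 4) and 3.06 ± 0.556 in VCX LPS (n = 3). Its difference was 0.59 ± 0.143 on day 2, 0.46 ± 0.175 on day 1 and 0.53 as the mean. Cebpb, a transcription factor of the acute phase response, rose in PFC (0.38, adjusted p = 0.0119), its effect in VCX was -0.06, and the difference was 0.43 ± 0.117. In males alone, again with 1 VCX LPS library, the Cebpb difference was 0.27. On day 1 Cebpb rose in both areas, by 0.63 and 0.50. Tmem28 and Scarf2 differed by 0.59 and 0.77, and with a pseudocount of 1 Scarf2 differed by 0.44. Mir339, the entry of a microRNA precursor, differed by 3.08 (95% interval 1.34 to 4.81) on day 2 and by -1.67 on day 1. Its day 2 libraries were at 0.288 to 3.38 FPKM, and with a pseudocount of 1 the day 2 difference was 1.71.

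The mean over both days added Rbm42 (0.23, or 0.11 in females alone) and the inward rectifier channel Kcnj4 (0.28) to Il1b, Wdr6 and Col23a1 on the higher side. On the lower side it added the syndecan Sdc2 (-0.24), the glutamate receptor Grm8 (-0.24) and Zbtb7c (-0.56) to Pdyn and Elmod1. Zbtb7c, a zinc finger protein gene, had an effect of -0.10 in PFC and 0.77 in VCX on day 1. For the 10 genes named on day 1, the areas stood farther apart in PBS than in LPS for 5, namely Il1b, Amn, Gabrg3, Elmod1 and Atf6. On day 2 this held for 7 of 10. These counts describe genes chosen for their difference.

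The IP libraries give the same contrast in other libraries. The IP was made from the same kind of lysate as the input, and the labels do not say whether IP and input libraries share animals, so the IP may not be independent of the input. There too 0 genes passed on either day, of 13163 and 13452 tested, with 427 (3.24%) and 506 (3.76%) at an unadjusted p under 0.05. Of the 10 genes named on day 1, 9 were tested in the IP, 7 had the same direction and 2 had an unadjusted p under 0.05, Ccdc74a and Cd74. Of the 10 named on day 2, 8 were tested, 3 had the same direction and 0 had a p under 0.05. Over all genes tested in both, 46.3% of 12839 had the same direction on day 1 and 47.1% of 13155 on day 2. The IP is enriched for astrocyte RNA, so it is not a replicate of the input.

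Among 14 response genes given whatever their result, the acute phase genes Saa3 and Lcn2 had the largest LPS effects on day 1. Saa3, a serum amyloid A gene, was at 0 to 0.240 FPKM in day 1 PFC PBS and at 61.4 to 261 in PFC LPS, and at 0 to 0.207 and 66.4 to 178.7 in VCX. It rose by 9.30 in PFC and 9.49 in VCX, and the area difference was -0.19 (95% interval -1.74 to 1.37). On day 2 its PFC LPS libraries ran from 26.6 to 291.9 and the VCX LPS libraries from 21.8 to 269.8, with a difference of 1.33 (-0.46 to 3.12). Lcn2, an iron-binding acute phase protein gene, rose by 5.07 in PFC and 6.14 in VCX on day 1, a difference of -1.07 (-3.02 to 0.89).

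The chemokine genes Ccl2 and Cxcl10 rose in both areas on day 1. Ccl2 rose by 5.02 and 4.73, with a difference of 0.29 (-0.58 to 1.16), and was below the filter on day 2. Cxcl10 rose by 4.76 and 4.29, with a difference of 0.48 (-0.83 to 1.78). On day 2 Cxcl10 rose in PFC (2.11, adjusted p = 0.00761), and in VCX its effect was 1.26 (adjusted p = 0.273), but the difference of 0.86 (-0.47 to 2.18) did not pass. The interferon-stimulated genes Usp18 and Ifit1 rose in both areas on day 1, with differences of 0.52 and -0.08, and on day 2 the differences were 0.53 and 0.68. Ifit1 on day 2 was at 2.42, 1.72, 2.09 and 1.96 FPKM in PFC LPS and at 1.05, 2.31 and 1.17 in VCX LPS, where replicate 2 stood above the others.

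The astrocyte intermediate filament genes rose in both areas on both days. Gfap rose by 1.57 in PFC and 1.42 in VCX on day 1, and by 1.09 and 0.95 on day 2, with differences of 0.14 (-0.55 to 0.83) and 0.14 (-0.37 to 0.65). Vim rose by 0.78 and 0.93 on day 1 and by 0.92 and 0.76 on day 2, with differences of -0.15 (-0.45 to 0.15) and 0.16 (-0.19 to 0.50). For both genes these intervals lay within a 2-fold area difference on either day. Serpina3n, an astrocyte acute phase gene, passed in neither area on day 1. Its PFC PBS libraries alone ran from 4.003 to 28.8 FPKM, and its difference was -0.44 (-3.12 to 2.23).

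The glucocorticoid-induced genes Fkbp5, Plin4 and Map3k6 rose in both areas on day 1. Fkbp5, a co-chaperone of the glucocorticoid receptor, rose by 1.07 and 1.28, with a difference of -0.21 (-0.54 to 0.12). Plin4 rose by 2.24 and 1.94, and Map3k6 by 0.78 and 0.70, with differences of 0.29 and 0.08. On day 2 none of the 3 passed in either area.

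S100a9, a calgranulin gene of neutrophils and monocytes, had the most negative difference of these genes on both days. On day 2 it was at 1.80, 1.12, 0.644 and 0.844 FPKM in PFC PBS and at 4.18, 3.55, 3.95 and 7.24 in PFC LPS. It was at 0.568, 0.144, 0.385 and 0.150 in VCX PBS and at 3.45, 4.92 and 4.15 in VCX LPS. As for Il1b, the areas overlapped under LPS and not under PBS, but here PFC was the higher area under PBS. S100a9 rose by 2.04 in PFC and 3.59 in VCX, and the difference was -1.55 (-2.49 to -0.61, unadjusted p = 0.00336, adjusted p = 1). On day 1 it was -1.17 (-2.80 to 0.46), and in the IP -1.31 on each day. The lowest day 2 VCX PBS values, 0.144 and 0.150, lie near the added 0.1 FPKM. Over 12 alternative settings the S100a9 difference as the mean of both days ran from -1.58 to -0.59. S100a8, the partner of S100a9, rose in both areas on both days, with differences of -0.08 and -0.63.

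**Figure D3:**
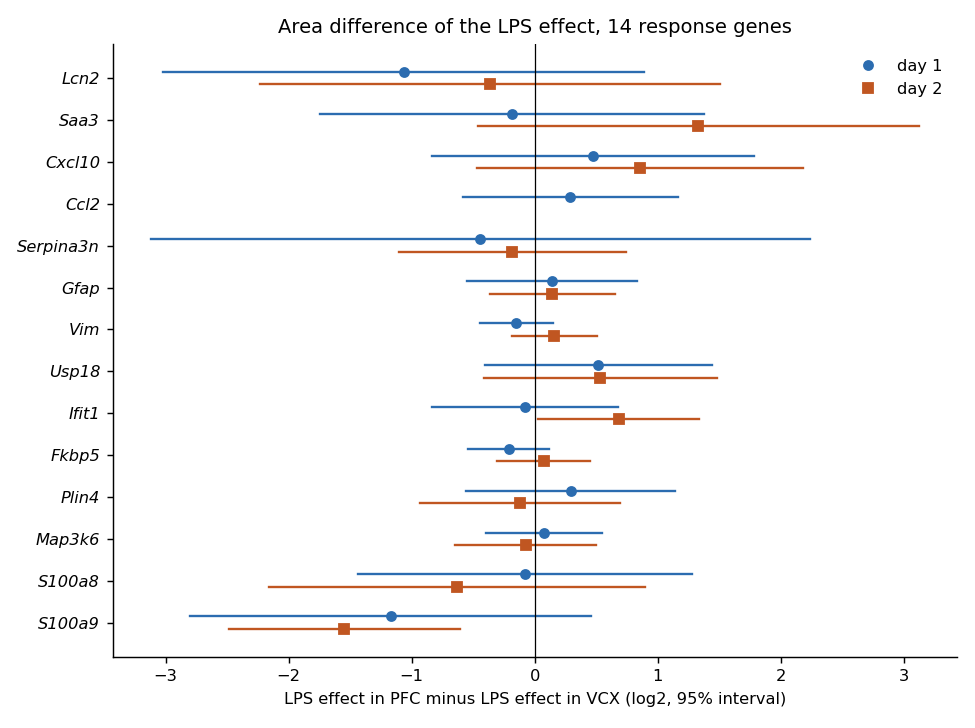
Area difference of the LPS effect (PFC minus VCX, log2) with its 95% interval for the 14 response genes, day 1 as circles and day 2 as squares. The day 2 interval of S100a9, from -2.49 to -0.61, and that of Ifit1 leave out 0 before adjustment.

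Gene lists were read by counts and medians, beside all genes tested, whose median difference was -0.0062 on day 1 and 0.0045 on day 2, with 48.7% and 51.8% positive. Counts of members that rose stand against 8.5% of all genes in PFC and 8.74% in VCX on day 1, and 3.43% and 1.85% on day 2. Counts that fell stand against 8.01% and 8.12% on day 1, and 0.314% and 0.198% on day 2. More genes rose in PFC than in VCX on day 2 over all genes too, 503 against 271. None of the members of any list passed the test of the area difference. Of 27 interferon-stimulated genes tested on day 1, 25 rose in PFC, 25 in VCX and 24 in both. The median difference was -0.06, with 11 of 27 positive, from -0.29 (Herc6) to 0.63 (Oas1a). On day 2, 18 of 25 rose in PFC and 8 in VCX, where the LPS group has 3 libraries, the median effects were 1.06 and 0.73, and 22 of 25 differences were positive with a median of 0.34. Oas1a, an antiviral sensor of double-stranded RNA, was at 1.32, 0.907, 1.21 and 1.07 FPKM in day 2 PFC LPS and at 0.297, 1.35 and 0.561 in VCX LPS. Its difference was 0.96 (-0.13 to 2.05). Mx1 differed by 0.64 (-0.01 to 1.29). In the IP the median difference of the list was 0.13 on day 1 and 0.43 on day 2.

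Interferon-induced GTPases gave 12 of 13 called higher in PFC and 11 in VCX on day 1, with 3 of 13 differences positive. On day 2 they gave 8 and 3 of 12, with 9 of 12 differences positive and a median of 0.215. Irgm1 differed by 0.45 on day 2, from 0.97 in PFC and 0.52 in VCX, both called. MHC class I and peptide loading genes rose in 10 of 14 cases in PFC and 11 in VCX on day 1, and in 8 of 14 in each area on day 2, with median differences of 0.09 and 0.08. Of 6 MHC class II genes, 4 fell in PFC and 3 in VCX on day 1, while H2-DMb1 rose in PFC. H2-Aa fell by 1.24 in PFC and by 0.76 in VCX, and H2-Ab1 by 1.45 and 1.02. The median class II difference was -0.28 in input on day 1 and 0.02 on day 2, and -0.64 and -0.53 in the IP.

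Cytokines and chemokines rose in 12 of 13 cases in each area on day 1, the same 12, and 1 fell in each. Their median difference was 0.025. On day 2, 6 of 7 rose in PFC and 2 in VCX, with 6 of 7 differences positive. Acute phase and STAT3 genes rose in 15 and 16 of 21 cases on day 1 and in 7 and 4 of 19 on day 2, with median differences of 0.03 and 0.14. Complement genes rose in 12 of 13 in each area on day 1 and in 11 and 8 of 12 on day 2. Their median difference was -0.27 on day 1 and 0.14 on day 2. C3, the central complement component, rose by 2.51 in PFC and 3.10 in VCX on day 1 and by 2.44 and 2.83 on day 2. NF-kB and Toll-like receptor genes rose in 13 and 15 of 22 on day 1 and in 6 and 3 of 20 on day 2, with 6 of 22 and 17 of 20 differences positive. Tlr2, a Toll-like receptor, rose by 4.19 and 4.30 on day 1 and by 2.47 and 1.85 on day 2.

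Endothelial activation genes rose in 10 of 16 cases in PFC and 12 in VCX on day 1, and in 7 in each area on day 2, with median differences of -0.22 and 0.15. Pan-reactive, A1 and A2 astrocyte genes rose in 24 and 23 of 30 on day 1 and in 14 and 8 of 29 on day 2, with median differences of -0.06 and 0.17. Heat shock and unfolded protein response genes rose in 13 of 20 in each area on day 1 and in 0 on day 2. Glucocorticoid-responsive genes rose in 6 of 20 in each area on day 1 and in 0 on day 2. Metallothionein and antioxidant genes rose in 4 and 2 of 15 on day 1, with a median difference of 0.015. Angiogenic and hypoxia genes gave 7 and 6 of 20 higher and 4 and 5 lower on day 1, with a median difference of 0.05. Circadian clock genes rose in 3 of 18 in each area on day 1 and in 0 on day 2, and with so few members such counts and that of the metallothionein list are not read as different from the background. Of 14 cell cycle genes on day 2, 7 rose in PFC and 2 in VCX, and 10 of 14 differences were positive.

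Cholesterol synthesis genes fell in 12 of 24 cases in PFC and 14 in VCX on day 1, and in 12 and 7 on day 2. Of the differences 20 of 24 were positive on day 1, with a median of 0.085, and 16 of 24 on day 2. Msmo1, a sterol demethylation enzyme, fell by 0.44 in PFC and by 0.70 in VCX on day 1. Immediate early genes, which neurons switch on with activity, gave 2 of 26 called higher and 1 lower in PFC and 0 higher and 3 lower in VCX on day 1, with a median difference of 0.20 and 23 of 26 positive. Without PFC PBS replicate 1 the median was 0.31 with 24 of 26 positive. With all libraries 14 of the 26 day 1 intervals lay within 2-fold. Fos ran from 15.68 to 66.72 FPKM in day 1 VCX PBS and from 16.89 to 62.18 in VCX LPS. VCX PBS replicate 4 was the lowest of its group for Fos and for Egr4, at 16.78 against 28.16 to 37.74 for Egr4. The list median was not taken without a VCX library. Fosl2 rose in PFC (0.35, adjusted p = 0.00129), its effect in VCX was -0.10, and the difference was 0.45 ± 0.0906 (unadjusted p = 1.31e-04). On day 2 no immediate early gene was called in either area, and 16 of 26 differences were positive. Cytosolic ribosomal protein genes had 27 of 34 positive differences on day 1, with a median of 0.18, and 8 of 34 on day 2, with a median of -0.04.

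Neuropeptide and interneuron genes fell in 9 of 20 cases in PFC and 7 in VCX on day 1, with a median difference of -0.10. Npy fell in PFC (-0.63, adjusted p = 0.0162), its effect in VCX was -0.12, and the difference was -0.51 ± 0.225. Cort, coding for cortistatin, fell in both areas on both days, by 1.19 and 0.89 on day 1 and by 0.94 and 0.58 on day 2. Synapse and excitability genes had 3 of 22 positive differences on day 1 and 11 of 22 on day 2, with a median of -0.125 on day 1, and all 22 intervals lay within 2-fold on both days. Day 1 PFC PBS replicate 1 stood apart in neuronal genes, with Camk2a, a synaptic kinase, at 307.6 FPKM against 189.1 to 200.2 in the other 3. Without it the synapse median was -0.056 with 4 of 22 positive. On day 2 VCX PBS replicate 4 stood apart, with Camk2a at 487.7 FPKM against 204.4 to 222.8 in the rest of its group. Gria1, another member of the synapse list, was at 71.66 there against 55.76 to 58.79. The day 2 medians of the neuronal lists were not taken without that library. Area patterning and layer genes fell in 7 and 5 of 24 cases on day 1, with a median difference of -0.04 (0.004 without PFC PBS replicate 1), and 0 were called on day 2.

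**Figure D4:**
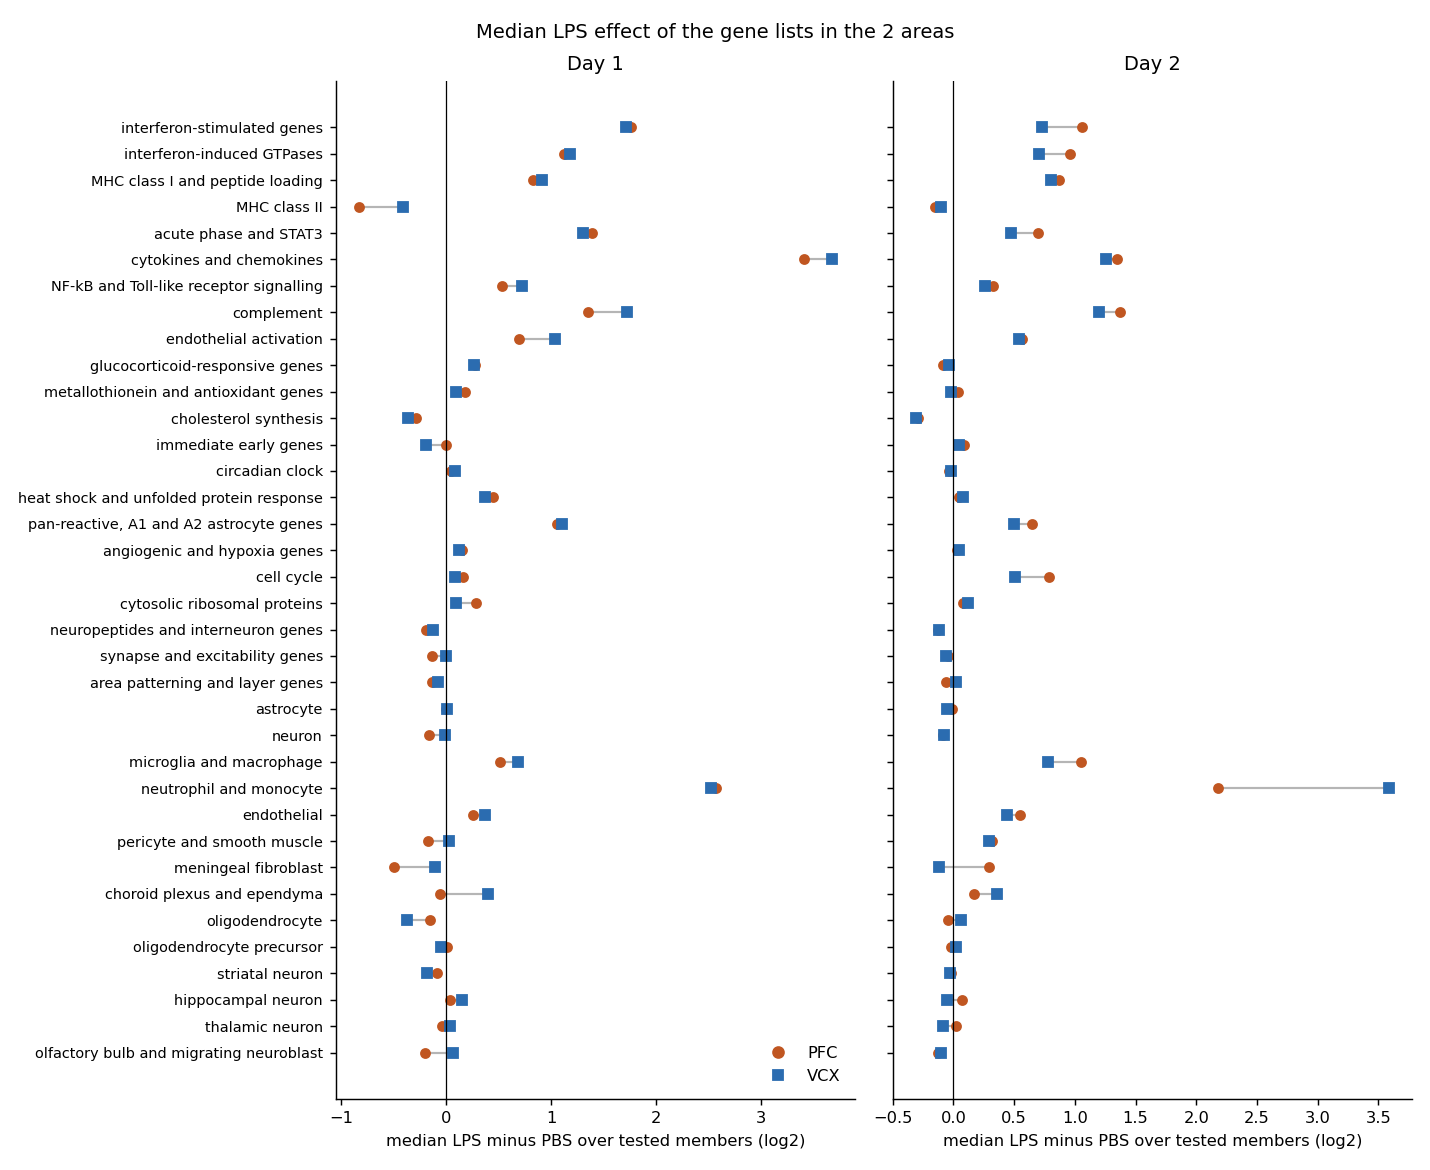
Median LPS minus PBS log2 change over the tested members of each list with at least 3 tested, in PFC (circles) and VCX (squares), for day 1 and day 2. Interferon-stimulated genes stand at 1.76 and 1.71 on day 1 and at 1.06 and 0.73 on day 2.

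Marker lists of cell types were read the same way, since input mixes cells. Microglia and macrophage markers rose in 11 of 16 cases in each area on day 1 and fell in 3. On day 2, 14 rose in PFC and 11 in VCX, with 15 of 16 differences positive and a median of 0.18. Csf1r, the receptor that microglia need to survive, rose by 0.96 in PFC and 0.72 in VCX on day 2. Trem2, a microglial lipid receptor, fell in both areas on day 1 and rose in both on day 2. The mean marker level of microglia in LPS libraries was 4.53 to 5.00 in PFC and 4.39 to 4.43 in VCX on day 2, on the log2(FPKM + 0.1) scale. In PBS libraries of that day it was 3.57 to 3.76 in PFC and 3.35 to 3.67 in VCX, with group means of 3.66 and 3.555. These markers move in the same direction as the interferon list on day 2, and their part in that result was not tested. Neutrophil and monocyte markers rose in 7 of 8 in each area on day 1 and 6 of 7 on day 2, with 3 of 8 and 2 of 7 differences positive.

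Meningeal fibroblast markers set the libraries apart within a group. On day 1 their mean level was 1.07 and 1.42 in PFC LPS replicates 1 and 2, against 1.785 to 2.37 in the other 14 libraries. Those 2 are the males of their group, and in every day 1 group both male libraries lay below both female ones. In day 1 PFC PBS the males were at 1.82 and 2.01 and the females at 2.24 and 2.28. On day 2 this order did not hold in PFC LPS or VCX PBS. Of the 14 markers 7 fell in PFC, while 1 rose and 1 fell in VCX, and 2 of 14 differences were positive with a median of -0.43. Without both libraries, which leaves only females in PFC LPS, the median was -0.09 with 7 of 14 positive. On day 2 all 14 differences were positive, with a median of 0.39, and none of the genes passed in either area. Their part in the other day 1 differences was not tested beyond leaving those libraries out, after which Il1b differed by 1.78, Cd74 by -1.16 and Wdr6 by 0.67. Sex was a covariate of the fit, and its part in these values was not tested further.

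Endothelial markers rose in 3 of 12 cases in PFC and 6 in VCX on day 1 and in 7 and 5 on day 2, with median differences of -0.12 and 0.08. Neuron markers fell in 4 and 2 of 12 on day 1, with a median difference of -0.21 (-0.14 and 2 rather than 4 called in PFC without PFC PBS replicate 1), and their mean level was 6.92 to 7.20 in day 1 PFC PBS and 6.80 to 6.93 in day 1 PFC LPS. Astrocyte markers had median differences of -0.05 and 0.07, oligodendrocyte markers 0.07 and -0.14, and oligodendrocyte precursor markers 0.06 and 0.02. Of 12 oligodendrocyte markers 3 fell and 1 rose in PFC on day 1, and 7 fell in VCX, with median effects of -0.15 and -0.37. On day 2 none of them was called in either area. Pericyte and smooth muscle markers gave -0.05 over 10 genes on day 1 and 0.05 over 9 on day 2. Choroid plexus markers gave -0.24 and -0.135 over 4 genes, among them Ttr at -1.27 and -1.04. Of tissue next to the cortex, striatal markers gave -0.02 on both days, hippocampal markers -0.18 and 0.09, and thalamic markers -0.06 and 0.13. Olfactory bulb and neuroblast markers gave -0.157 (-0.097 without PFC PBS replicate 1) and 0.005, with a mean level of 0.81 to 1.43 in day 1 PFC PBS against 0.72 to 0.88 in PFC LPS. Only 2 erythroid markers and 0 lymphocyte markers passed the filter.

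**Figure D5:**
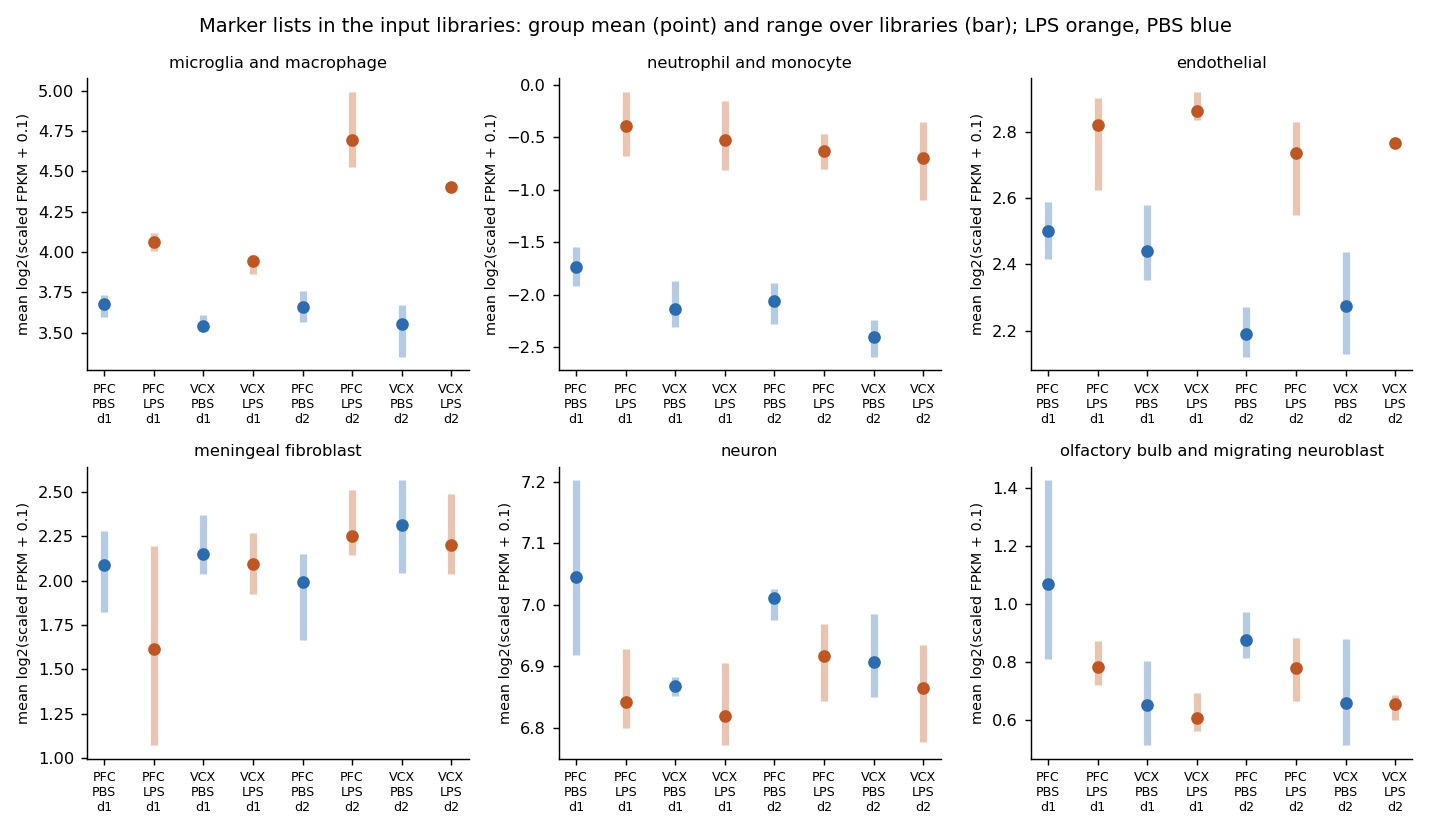
Mean log2(scaled FPKM + 0.1) of 6 marker lists, with points for group means and bars for the range over libraries, PBS in blue and LPS in orange. Meningeal markers reach down to 1.07 in day 1 PFC LPS, and microglia markers are highest in day 2 PFC LPS.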

How the data were processed

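PolyA RNA of input lysate was sequenced with TruSeq libraries, per the labels' protocols. The deposited files hold FPKM made by the authors. STAR, HTSeq and the build mm10 are listed in the submitters' processing notes. Tool versions, strand setting and gene annotation are not given in the sources used here. Within a gene the values are whole multiples of a step, from which reads were recovered for all 20788 genes above 0 in at least 1 of 62 input and IP libraries. Of values above 0, 100% came out whole within 0.05. Reads served for depth, scaling factors and the limma-voom alternative. Of 24060 entries 27 carried a date for a symbol, and 4 ambiguous ones were left out.

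FPKM were divided by TMM factors (30% of M and 5% of A values trimmed), and log2 was taken after adding 0.1. Genes below 0.5 FPKM were kept out of the fit unless at least as many libraries as in the smallest group reached that level. Limma 3.58.1 in R 4.3.3 fitted groups with sex as covariate, 16 day 1 libraries, 15 day 2 libraries, or all 31 for the mean and the change. Calls had a Benjamini-Hochberg adjusted p under 0.05 in two-sided tests over all genes. Log2 fold changes understate changes of low genes. Overlapping and paralogous genes can share reads. The fit was also run on simulated reads with planted area differences. How many of these it found is not given here, so nothing is drawn from that run.

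Comparison, members and lists were chosen with earlier results of these data known. Named genes are the 5 per direction with the lowest unadjusted p on day 1, on day 2 and for the mean, since none was called, with a mean of at least 1 FPKM in a group and without predicted, clone-named or mitochondrial entries. To these come a panel of 14 and up to 4 members per list with the largest mean difference. Other list members were named after their values were seen. Alternatives were other pseudocounts, filters, scalings, weights, single sexes and leaving out libraries. Gene positions are from GENCODE vM21. Libraries of day 14 and whole tissue were not used here.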

Additional observations from a re-analysis of the deposited data

Results flagged for a closer look

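In groups of 4 libraries, the highest or lowest value was compared with its nearest neighbour by Dixon's ratio at its 95% critical value. Over 39 genes and the library totals 280 groups were looked at and 26 (9.29%) held a library that stood apart, where chance gives about 1 in 20 groups. Libraries that stood apart were Atf6 at 20.7 in PFC LPS of day 2 (replicate 1) and 20.1 in VCX PBS of day 1 (replicate 3) scaled FPKM, Ccl2 at 0.25 in PFC PBS of day 1 (replicate 3) and 6.1 in VCX LPS of day 1 (replicate 3) scaled FPKM and Cxcl10 at 8.13 in VCX LPS of day 1 (replicate 3) and 0.322 in VCX PBS of day 2 (replicate 4) scaled FPKM. Others were Fkbp5 at 11.6 in PFC LPS of day 1 (replicate 4) scaled FPKM, Glipr1 at 1.02 in VCX PBS of day 1 (replicate 2) scaled FPKM and Il1b at 3.07 in PFC LPS of day 1 (replicate 1) and 3.86 in VCX LPS of day 1 (replicate 2) scaled FPKM. Further ones were Kcnj4 at 84.9 in PFC LPS of day 2 (replicate 4) scaled FPKM, Lcn2 at 60.6 in PFC LPS of day 1 (replicate 3), 23.3 in PFC LPS of day 2 (replicate 1), 3.91 in PFC PBS of day 1 (replicate 1), 0.882 in PFC PBS of day 2 (replicate 2) and 2.87 in VCX PBS of day 1 (replicate 1) scaled FPKM and Map3k6 at 2.62 in PFC LPS of day 1 (replicate 3) and 1.62 in PFC PBS of day 1 (replicate 1) scaled FPKM. Also apart were Nupr1 at 9.27 in VCX PBS of day 1 (replicate 1) scaled FPKM, Rbm42 at 29 in PFC PBS of day 1 (replicate 2) scaled FPKM and S100a9 at 15.6 in PFC LPS of day 1 (replicate 3) and 7.24 in PFC LPS of day 2 (replicate 4) scaled FPKM. Libraries that stood apart were Serpina3n at 38 in VCX LPS of day 1 (replicate 4) and 14.7 in VCX PBS of day 2 (replicate 1) scaled FPKM, Vim at 11.1 in VCX PBS of day 1 (replicate 2) scaled FPKM and Wdr6 at 60.3 in PFC PBS of day 2 (replicate 3) scaled FPKM. Lcn2 stood apart in 5 groups, in each as the highest library. Both Il1b libraries that stood apart were the lowest of the day 1 LPS groups, 1 in each area. Without the PFC one the Il1b difference was 1.76 with a limma adjusted p of 0.0281. Without the VCX one it was 1.43, the lowest of the 16 fits that left out 1 day 1 library. Over those fits the Il1b adjusted p reached 0.408. Day 1 VCX LPS replicate 3 was the highest for Ccl2 and Cxcl10. What these libraries have in common was not tested.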

How the results depend on the processing

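The count of 0 area differences moved on day 1 to 1 without a filter (Ripply1, listed at 0 outside the day 1 VCX LPS group), to 1 with limma-voom on recovered reads and to 1 with array weights (both Wdr6). It moved to 9 with all 31 libraries in the fit (Amn, Cnih3, Elmod1, Gabrg3, Kcnj4, Ndnl2, Nr2f6, Wdr6 and Wscd1). On day 2 it moved to 1 without a filter (Mir1951), without the sex covariate (Mir7015), with array weights (Mir7015) and with all 31 libraries (BC002163, a processed pseudogene). For the mean and for the change it moved to 1 without a filter. Males alone left 1 library in day 2 VCX LPS, so no count of that fit is read. Leaving out single libraries gave 0 to 1 on day 1, on day 2 and for the mean. The 1 was Il1b without PFC LPS replicate 1 on day 1, Mir7015 without VCX PBS replicate 4 on day 2, and BC002163 for the mean without day 2 PFC PBS replicate 3 or VCX LPS replicate 2. Pseudocounts, RLE factors, no rescaling, a filter of 1 FPKM and females alone kept 0 throughout, and the IP count was 0 under the alternatives run there (a pseudocount of 1, no filter, RLE factors, no sex covariate and leaving out single libraries).

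Calls of the LPS effect ran from 142 to 311 in VCX on day 2 when single libraries were left out, the lowest without VCX LPS replicate 2. In PFC on day 1 they were 1054 without both libraries of low meningeal markers, which are the males of PFC LPS. That alternative was chosen after seeing the data. The mean area difference turned sign, without passing, for Vim (-0.0205) and Map3k6 (-0.157) in females alone. Males alone left 1 library in day 2 VCX LPS, replicate 2. In that fit the mean area difference turned sign for Saa3 (-0.0429), Cxcl10 (-0.11), Ccl2 (-0.32) and Vim (-0.0149). It also turned for Usp18 (-0.0097), Ifit1 (-0.0592), Plin4 (-0.27) and S100a8 (0.0136). Without single libraries it ran from -0.068 to 0.488 for Ccl2, -0.105 to 0.0079 for Fkbp5, -0.0554 to 0.0901 for Map3k6, -0.0082 to 0.31 for Plin4 and -0.028 to 0.0741 for Vim. The cause of these moves was not tested. No paired analysis was possible because each library's title carries a number of its own, and the replicate numbers used here follow accession order and pair no libraries.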
